A study of Mus musculus with 4 samples.

Results

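The genes described here are 37 members of the axon guidance families of Eph receptors (14 genes), ephrins (8), Slits and their Robo receptors (7), and netrins with their receptors (8), out of 22367 protein-coding genes of the GENCODE vM1 annotation of the mouse genome build mm9. They were listed by family name, with earlier results of these data known. Every SOX3 peak that overlapped the gene body or the 50 kb to either side of it (the window of the gene) was counted. SOX3 is a SOXB1 transcription factor of neural progenitors, and its binding was mapped by ChIP-seq in neural progenitor (NP) cells that had been made from R1 mouse embryonic stem cells by 4 days of monolayer culture in N2B27 medium. Chromatin was precipitated with the antibody AF2569, a polyclonal from goat made to the human protein, in 3 biological replicates, and the peaks of each were called against an input sample. All 3 replicates are of the same cells and treatment, so there was no second condition, and the lists hold no expression values with which the NP identity could be checked by marker genes.

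Eph receptors are receptor tyrosine kinases that read ephrins on neighbouring cells. A-type ephrins are held in the membrane by a lipid anchor and B-type ephrins cross it, and signals can pass into both cells, which sorts cells at tissue boundaries and repels growing axons. Slits are secreted proteins that repel axons through Robo receptors, most famously at the midline. Netrins are secreted cues that attract axons through DCC and the related Neogenin, and repel them where UNC5 receptors take part.

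The replicates gave 18816, 8096 and 40543 peaks, of which 124, 58 and 190 lay in the windows of the guidance genes. Each peak carries a score, 10 times the negative log10 of the p-value of the peak caller MACS, with a lowest value of 50. Where peaks from all 3 replicates shared 1 bp or more, the shared stretch was called a common site, of which the genome held 5537. The study itself reports a larger number of common sites, and the cause of the difference was not tested. Scores depend on read depth, which the lists do not give, so each was also expressed as a percentile, the share of peaks of the same replicate with an equal or lower score, and a site was ranked by the lowest of its 3 percentiles. Replicates 2 and 3 were not alike in the way the other pairs were. Their overlapping peaks began at the same base in 34.5% of 7815 pairs in the genome and in 19 of 57 pairs in the guidance windows, against 0 of 45 for replicates 1 and 2 and 1 of 70 for replicates 1 and 3. The main counts are therefore also given without each of these replicates.

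The sequences below are the common sites on which the account turns, namely the highest ranked site of each family and of Slit1, Efnb3 and Ntn1, Ntn1 having been added after its values were seen. For the ephrins the highest ranked site lay in an untranslated region, and the next is shown. Capitals mark 2 SOX words on either strand, the A word (AACAAA or AACAAT) and the G word (GACAAA or GACAAT). They also mark the POU octamer (ATGCAAAT or, with 1 base changed, ATGCTAAT), and the middle 300 bases are given where a site was longer.
Epha4, intron 3, chr1:77499251-77499550, plus strand: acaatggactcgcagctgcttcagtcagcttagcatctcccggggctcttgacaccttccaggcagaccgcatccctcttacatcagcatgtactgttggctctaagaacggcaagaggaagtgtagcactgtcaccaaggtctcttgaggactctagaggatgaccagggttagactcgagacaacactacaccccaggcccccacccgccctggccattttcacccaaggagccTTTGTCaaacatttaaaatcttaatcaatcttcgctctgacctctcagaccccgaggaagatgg
Efnb2, downstream of the gene, chr8:8572281-8572580, plus strand: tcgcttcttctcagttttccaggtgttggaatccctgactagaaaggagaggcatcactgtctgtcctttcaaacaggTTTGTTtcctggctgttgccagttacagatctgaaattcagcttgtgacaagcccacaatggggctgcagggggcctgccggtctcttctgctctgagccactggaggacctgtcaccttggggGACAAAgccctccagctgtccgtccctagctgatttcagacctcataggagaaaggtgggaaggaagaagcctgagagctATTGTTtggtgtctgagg
Robo1, intron 2, chr16:72788326-72788625, plus strand: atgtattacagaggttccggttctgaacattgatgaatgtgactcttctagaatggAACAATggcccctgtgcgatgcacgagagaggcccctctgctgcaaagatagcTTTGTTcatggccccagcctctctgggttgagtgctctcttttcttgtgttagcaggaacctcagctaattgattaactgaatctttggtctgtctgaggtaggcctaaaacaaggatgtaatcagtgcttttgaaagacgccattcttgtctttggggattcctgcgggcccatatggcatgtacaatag
Unc5c window, in an intron of Bmpr1b, chr3:141512163-141512462, plus strand: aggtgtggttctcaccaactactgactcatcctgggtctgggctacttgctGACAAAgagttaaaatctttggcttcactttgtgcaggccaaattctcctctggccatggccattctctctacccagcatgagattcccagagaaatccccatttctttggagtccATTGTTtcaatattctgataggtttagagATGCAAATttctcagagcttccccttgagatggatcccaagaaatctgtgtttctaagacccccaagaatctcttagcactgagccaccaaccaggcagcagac
Slit1, intron 4, chr19:41773494-41773782, plus strand: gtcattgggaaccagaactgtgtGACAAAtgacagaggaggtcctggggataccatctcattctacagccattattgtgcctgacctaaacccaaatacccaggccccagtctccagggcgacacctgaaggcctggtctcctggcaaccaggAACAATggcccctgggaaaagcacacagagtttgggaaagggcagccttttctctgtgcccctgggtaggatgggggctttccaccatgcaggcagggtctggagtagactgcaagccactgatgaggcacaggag
Efnb3 window, near the start of Trp53, chr11:69395450-69395635, plus strand: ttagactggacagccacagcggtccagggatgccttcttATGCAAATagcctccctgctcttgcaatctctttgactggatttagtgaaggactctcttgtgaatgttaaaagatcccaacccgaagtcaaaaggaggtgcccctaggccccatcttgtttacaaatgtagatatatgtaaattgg
Ntn1, intron 2, chr11:68207484-68207783, plus strand: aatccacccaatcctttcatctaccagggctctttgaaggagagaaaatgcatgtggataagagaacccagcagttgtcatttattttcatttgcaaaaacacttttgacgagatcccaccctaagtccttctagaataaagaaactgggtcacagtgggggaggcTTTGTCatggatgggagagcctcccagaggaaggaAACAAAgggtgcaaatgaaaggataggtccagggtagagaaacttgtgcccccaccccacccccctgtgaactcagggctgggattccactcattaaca
All except the Efnb3 stretch hold a SOX word. The Efnb3 stretch holds an octamer alone, and the Unc5c stretch holds both kinds.

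Of the 37 members, 22 (59.5%) had a common site in the window, against 28.7% of all protein-coding genes and 14.5 members expected from length. The count was 16 where only the closest start was credited, beside 13.7% of all genes and 9.37 members expected from gene length, by applying to each member the share among genes of its length class. It was 15 at a p-value limit of 1e-10 (15.2% of all genes, 8.56 members expected) and 15 with 10 kb to each side (14% of all genes, 10.2 members expected), and 6 of the 22 had only sites nearest to the start of another gene. In the gene body itself 13 members had a common site, against 8.37% of all genes and 8.55 members expected from length, and these were Epha2, Epha4, Epha5, Ephb1, Ephb3, Efna5, Efnb2, Slit1, Slit3, Robo1, Robo2, Ntn1 and Neo1. Within 2000 bp of their own start only Epha2 and Ephb3 had a common site, where the share of all genes was 4.49%. Without replicate 2 the number with a site in the window was 27, where the share of all genes was 39.3% and 18.4 members were expected from length. Without replicate 3 it was 22, beside 29.4% of all genes. Epha4, Ephb1 and Efnb2 had 5 or more common sites, as did 0.948% of all genes. The windows held 44 common sites, 31 of them overlapping the body of a member, 36 regions with peaks of 2 replicates and 164 with a peak of 1 replicate. The genes Epha4, Ephb1, Efnb2 and Ntn1 held 21 of the 44 sites.

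**Figure D1:**
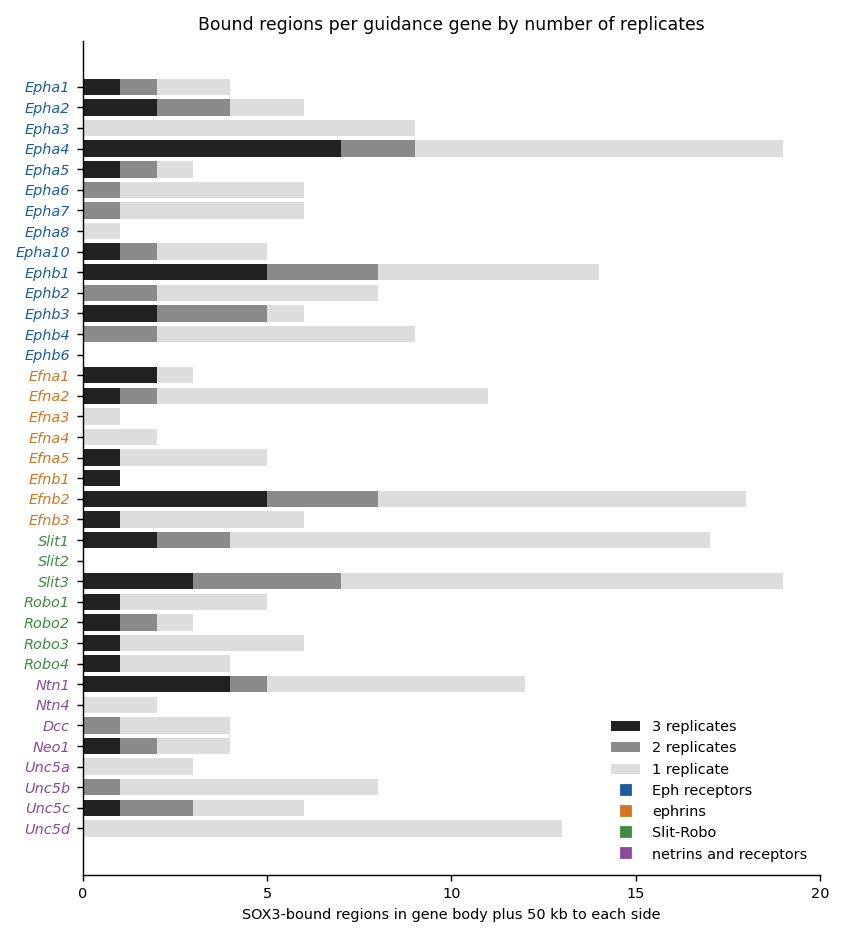
Number of SOX3-bound regions in the window of each of the 37 genes, split into regions with peaks of 3, 2 and 1 replicates (black, grey and light grey), with gene names coloured by family. Epha4 has 7 regions with all 3 replicates, and Ephb6 and Slit2 have no region at all.

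Long genes have long windows, and the guidance genes are long, with a median of 107 kb and a range from 4.64 to 1092 kb. The share of all genes with a common site rose with length, from 25.4% of genes under 20 kb to 69.0% of genes of 500 kb and over. Applying the share of each length class to the members gave 14.5 of 37 (39.2%), beside the 22 seen. Length did not order the members among themselves, with a Spearman correlation of -0.01 between length and number of common sites over the 37 genes and 0.12 over all protein-coding genes, both given as descriptions. Among members under 20 kb, 8 of 11 had a common site, and among those of 500 kb and over 2 of 5 had one. The 3 longest members without one were Epha6, Unc5d and Dcc, the last 1092 kb long. By merged window length the members had 0.395 sites per 100 kb (95% Poisson interval 0.287 to 0.530), beside 0.259 over the windows of all protein-coding genes. Epha4, Ephb1, Efnb2 and Ntn1 held 21 of the 44 sites behind this density, and the density of the members without them was not computed. All intervals here cover counting error only.

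**Figure D2:**
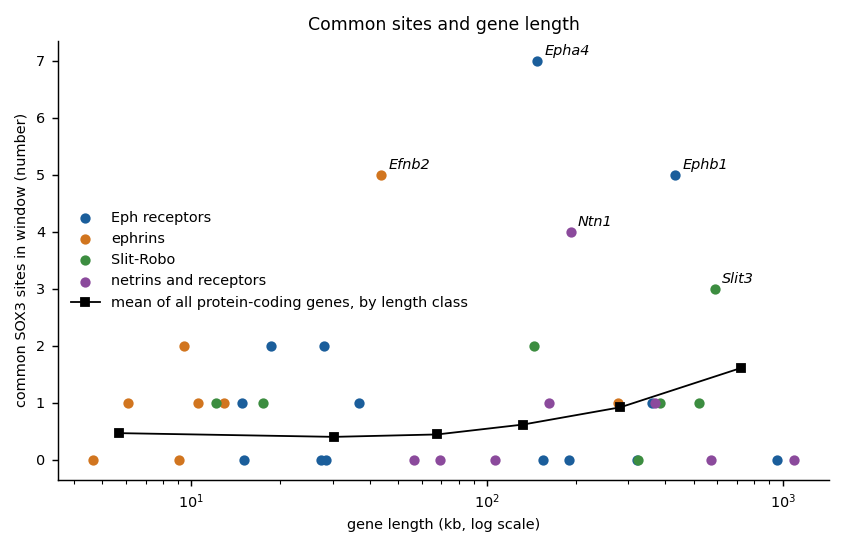
Common sites in the window of each guidance gene against gene length (kb, log scale), coloured by family, with black squares for the mean of all protein-coding genes at the median length of each length class. The named 5 members have 3 or more sites, and 15 members lie at 0. The class means run from 0.400 to 0.919 below 500 kb, so any member there with a site lies above its class mean.

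Among the receptors for ephrins, 7 of 14 Eph genes had a common site, where 5.24 were expected from length, and together they had 19 sites, or 0.461 per 100 kb (0.278 to 0.720). Their sites ranked highest of the families, with a median lowest percentile of 79.1, beside 60.9 for common sites outside the guidance windows, and 8 of 19 were at the 90th percentile or above in every replicate, beside 13.7% of those outside sites. Epha4 held 4 of these 8 sites and Ephb1 3, so the share mostly describes those genes. Epha4, whose receptor binds ephrins of both types, had 7 common sites, all in introns and spread over 72.4 kb. Only 3 of 1447 genes of 100 to 200 kb had 7 or more, Epha4 among them. Without Epha4 the Eph genes had 12 sites, or 0.310 per 100 kb.

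The Epha4 site with the highest lowest percentile was that of intron 3 printed above, 12.3 kb from the start. It scored 1510 in replicate 1, 852 in replicate 2 and 1421 in replicate 3, percentiles 99.7, 99.2 and 99.8, and ranked 66 of 5537 common sites. The whole site of 838 bp held 4 G words and no A word. Another site of intron 3, 53.1 kb from the start, scored 980, 873 and 1668, higher than the first in replicates 2 and 3, and ranked 72. Those sites stood at the top of all 3 lists alike. A site in intron 4 scored 351, 321 and 486, and a further site of intron 3 scored 429, 257 and 423. The other 3 Epha4 sites scored 153, 87.7 and 180 in intron 4, 215, 112 and 189 in intron 3, and 145, 88.4 and 137 in intron 1. Their lowest percentiles ran from 54.1 to 66.8, so the gene combined some of the highest sites in the genome with middling ones.

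Ephb1, a receptor for B-type ephrins, had 5 common sites, all in its introns and between 92.5 and 309 kb from its start. Its highest, in intron 2, scored 661, 506 and 899 and had percentiles of 97.9, 97.3 and 99.4. Its lowest, in intron 4, scored 81.0, 109 and 238, with percentiles of 52.9, 65.4 and 94.9. Of the sites between them, another of intron 2 scored 519, 129 and 228, and those of intron 1 scored 342, 382 and 721 and 806, 297 and 476. The 5 sites spanned 217 kb, and 16 of 754 genes of 200 to 500 kb had as many.

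Epha2 had its sites at the other end of the gene. A site 8.03 kb upstream of the start scored 959, 577 and 1104, percentiles 99.1, 98.0 and 99.6. A weaker one at the start itself, its middle 44.5 bp upstream and its end within the gene, scored 160, 162 and 237. Ephb3 had a site 1.48 kb from an annotated start, in its first intron, that scored 204, 142 and 234, and a low one 29.3 kb upstream that scored 55.7, 60.8 and 127. Ephb3 thus had its clearer site at the gene and Epha2 its clearer site away from it.

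Epha5 and Epha1 had 1 common site each. The Epha5 site in intron 3 scored 160, 154 and 263, and the Epha1 site, 7.63 kb upstream, scored 332, 91.1 and 194. Both held a match to the SOX/POU word, a degenerate composite word whose POU part is looser than the octamer, and neither held the octamer itself. The site in the Epha10 window scored 130, 248 and 204, but it lay 1.51 kb from the start of Cdca8, and all of its 50-base sequences occur more than once in the genome. No common site was found for Epha3, Epha6, Epha7, Epha8, Ephb2, Ephb4 and Ephb6. Of these, Epha7 had the most prominent 2-replicate region, which scored 402 in replicate 1 and 120 in replicate 3 and had no peak in replicate 2. Ephb6, which codes for a receptor without kinase activity, had no peak of any replicate.

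**Figure D3:**
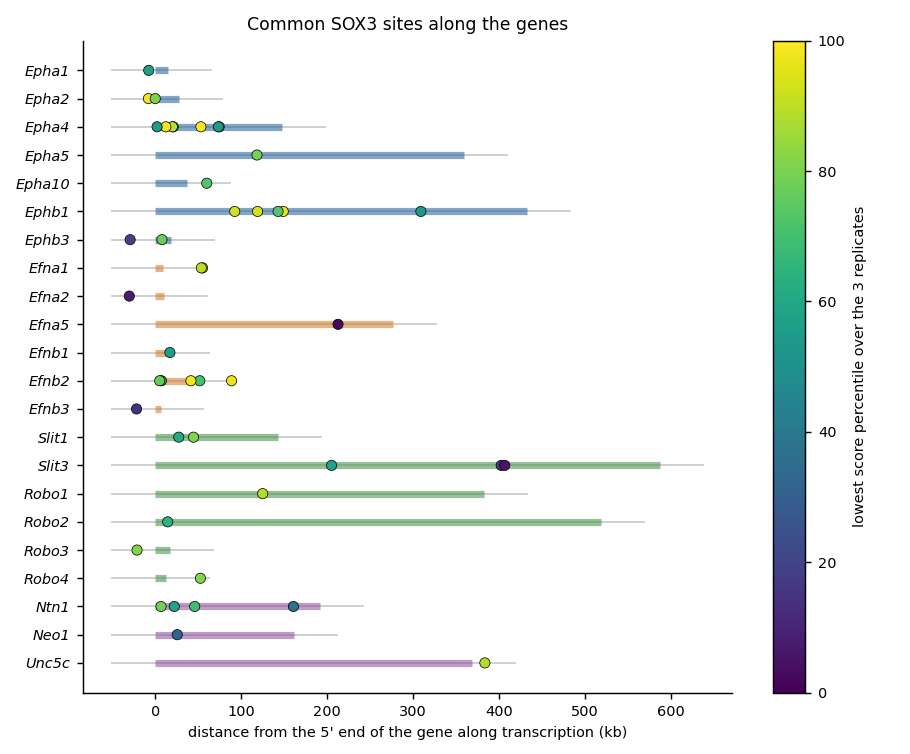
Common sites along the 22 genes that have any, as distance in kb from the 5' end of the gene along transcription, with thick bars for the gene body, thin lines for the 50 kb to each side and point colour for the lowest percentile over the 3 replicates. The Epha4 and Ephb1 sites lie within the gene bodies, and those of Efna1, Efna2 and Efnb3 lie outside them.

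Ephrins, the membrane-bound ligands, had a common site in 6 of 8 windows, with 2.31 expected from length. They had 11 sites, or 1.08 per 100 kb (0.540 to 1.94), and the interval did not overlap that of the netrin group. Density over all genes fell with length, from 0.435 per 100 kb of windows under 20 kb to 0.166 at 500 kb and over, so densities of short ephrin and long netrin genes are not directly comparable. Set against the mean of each length class, the ephrins had 11 pairs of site and gene with 4.11 expected, and the netrin group had 6 with 6.87 expected. Ephrin genes are short, with a median of 9.97 kb, and 4 of the 11 sites lay nearest to another gene. Counting only sites whose closest start was that of the ephrin left 3 of 8, with 1.10 expected from length and 13.7% of all genes. Counting only gene bodies left 2, with 0.697 expected and 8.37% of all genes. Efnb2 held 5 of the 11 sites, and without it the density was 0.687 per 100 kb (0.252 to 1.496), which overlapped the interval of the netrin group.

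Efnb2, a B-type ephrin of neural and vascular tissue, was the ephrin with most binding, and 19 of 4877 genes of 20 to 50 kb had as many sites. A site in its last exon, in the 3' untranslated region, scored 1028, 576 and 1084, percentiles 99.2, 98.0 and 99.6. The site printed above, 45.0 kb beyond the end of the gene, scored 799, 468 and 771. Both were among the highest of each list. A site between them, 7.98 kb beyond the gene, scored 222, 123 and 161, and a pair in the first intron scored 218, 98.0 and 187 and 145, 150 and 282.

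Of the other ephrins, 5 had 1 or 2 sites each, several of them at another gene. A pair in the Efna1 window lay 0.943 and 0.448 kb from the start of Mtx1, and they scored 862, 409 and 747 and 453, 245 and 412. The Efna2 site lay 0.108 kb from the start of Midn and scored 145, 52.2 and 108. The Efnb3 site, printed above, lay 1.64 kb from the start of Trp53 and 21.8 kb upstream of Efnb3, and it scored 136, 54.6 and 93.0. In replicate 2 the Efnb3 site was at the 14.6th percentile and the Efna2 site at the 7.52th. Efnb1 had a site 4.17 kb past its end that scored 248, 89.4 and 148. The Efna5 site, in its first intron, scored 140, 50.3 and 96.8, at the 1.20th percentile in replicate 2, and 88.3% of its 50-base sequences occur more than once in the genome. Efna3 and Efna4, which neighbour Efna1, had none.

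Slits and Robos had a common site in 6 of 7 windows, with 3.29 expected from length, and 8 different sites, or 0.309 per 100 kb (0.133 to 0.609). Counting only sites whose closest start was that of the member left 5 of 7, with 2.34 expected from length and 13.7% of all genes. Counting only gene bodies left 4, with 2.36 expected and 8.37% of all genes. None of the 8 sites was at the 90th percentile or above in every replicate, beside 13.7% of common sites outside the guidance windows. With so few sites this count does not set the family apart from that share. Slit1, a secreted ligand, had a pair in intron 4. The first, printed above, was 44.3 kb from a start and scored 176, 163 and 209, percentiles 82.1, 80.7 and 93.8. The second, 27.1 kb from a start, scored 96.1, 121 and 163. Slit1 also had 2 regions with peaks of 2 replicates, and 13 regions with a peak of 1 replicate, 12 of them of replicate 3. The region at chr19:41745439-41745642 scored 50.9 and 50.1 in replicates 1 and 3 and had no peak in replicate 2. It overlaps an intronic Slit1 peak listed by the study and was not a common site here. Slit3 had 3 intron sites, the best of which scored 226, 93.2 and 168, and the other pair, which scored 54.6, 57.9 and 110 and 103, 51.6 and 61.3, fell to the 16.6th and 5.15th percentile in their lowest replicate. Slit2 had no peak of any replicate in its window, though the gene is 323 kb long.

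The Robo1 site in intron 2, 125 kb from a start, was the highest of this family. It scored 337, 230 and 436, percentiles 93.1, 88.3 and 97.8, and held 3 A words. The Robo2 site in intron 1 scored 163, 106 and 132 and held no SOX word. Robo3 and Robo4 are neighbours and shared 1 site, which scored 245, 169 and 261 and lay 21.3 kb upstream of Robo3.

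With all 3 replicates, netrins and their receptors had the fewest, with a common site in 3 of 8 windows where 3.66 were expected from length, and 6 sites, or 0.175 per 100 kb (0.0644 to 0.382). Ntn1, the secreted ligand, had 4 of them, all in introns. The highest, printed above and 6.69 kb from the start, scored 253, 154 and 326, and the lowest scored 163, 68.2 and 115. The pair in intron 3 scored 177, 118 and 217 and 90.3, 112 and 230. Without Ntn1 the group had 2 sites, or 0.0639 per 100 kb. The Neo1 site, in the first intron of the Neogenin gene, scored 114, 63.2 and 69.6. The site in the Unc5c window lay in an intron of Bmpr1b, 14.4 kb beyond the end of Unc5c, and scored 315, 231 and 442. Dcc, Ntn4, Unc5a, Unc5b and Unc5d had no common site. The best Dcc region scored 152 in replicate 1 and 126 in replicate 3 and had no peak in replicate 2. Without replicate 2 the netrin group had 5 of 8 members with a site, Dcc and Unc5b being added, and 13 sites, or 0.380 per 100 kb. Slit-Robo then had 12 sites, or 0.464 per 100 kb. The netrin group thus no longer had the fewest sites but kept the lowest density. The share of all genes with a site rose to 39.3% under the same setting.

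**Figure D4:**
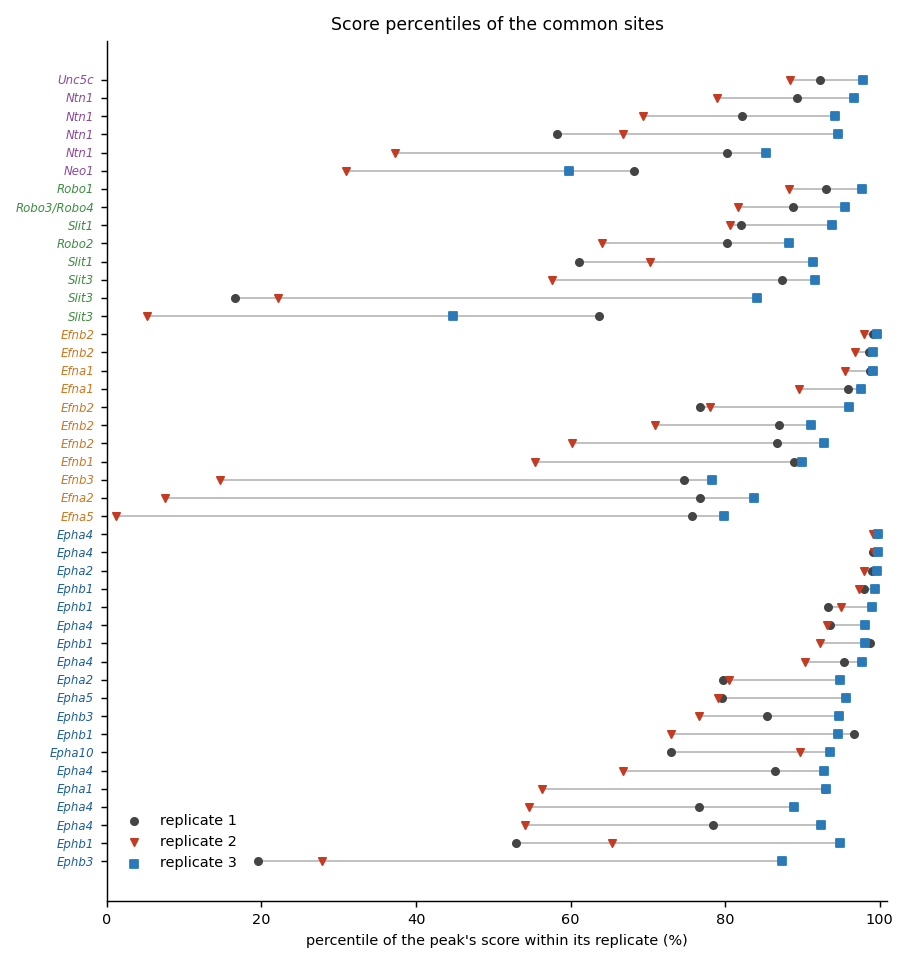
Percentile of the peak score within each replicate (circles, triangles and squares for replicates 1, 2 and 3) at each of the 44 common sites, with gene names coloured by family. Replicate 2 is lowest at 34 sites and replicate 3 highest at 40. The same order holds over all 5537 common sites, with median percentiles of 82.3, 64.9 and 92.8 in replicates 1, 2 and 3. The lists differ in length, that of replicate 2 being the shortest and that of replicate 3 the longest.

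Over the 44 sites the median score was 217 in replicate 1 (54.6 to 1510). It was 136 in replicate 2 (50.3 to 873) and 229 in replicate 3 (61.3 to 1668). Their median lowest percentile was 73.0, and 11 of 44 (25.0%) were at the 90th percentile or above in every replicate, beside 13.7% of common sites elsewhere. Epha4 held 4 of these 11 sites, Ephb1 3 and Efnb2 2, so the share mostly describes those genes. The order of the sites was similar across replicates, with Spearman correlations of the percentiles over the 44 sites of 0.78 for replicates 1 and 2, 0.78 for 1 and 3 and 0.95 for 2 and 3, given as descriptions. The last pair is the one with shared peak starts, and whether those replicates are independent was not tested, so a common site may rest on fewer than 3 independent samples.

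Most of the sites were intronic. Of the 44, 29 (65.9%, 95% Wilson interval 51.1 to 78.1) lay in an intron, 7 within 2000 bp of a protein-coding start, 7 between genes and 1 in an exon. In the windows of all protein-coding genes, built in the same manner, 38.3% of 4266 common sites were intronic. That comparison does not adjust for gene length, and long genes give more intron. Of the 7 sites at a start, 2 were at a member, Epha2 and Ephb3. The closest start was that of a member for 35 of the 44 sites. Mostly repeated sequence, as at Epha10 and Efna5, made up 2 of the 44 sites and 17.4% of all common sites.

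The SOX words were frequent in these sites, but how far they stood out from their surroundings depended on how the surroundings were drawn. The A word was in 26 of 44 sites (59.1%, 44.4 to 72.3), and the G word in 20 (45.5%, 31.7 to 59.9). Either was in 35 (79.5%, 65.5 to 88.8). In windows of the same width centred 2000 bp from the middle of the site, either word was in 46.6% of 88 (36.5 to 56.9), and the G word in 20.5% (13.3 to 30.03), and neither interval overlapped that of the sites. In windows that began 2000 bp beyond the edges of the site, a definition added after the first values were seen, the shares were 63.6% (53.2 to 72.9) and 33.0% (24.0 to 43.3), and both intervals overlapped those of the sites. For the A word the intervals overlapped with both kinds of window, at 35.2% (26.1 to 45.6) and 43.2% (33.3 to 53.6). A looser SOX word, ACAA followed by A or T and then A or G, was in 30 sites (68.2%, 53.4 to 80.0), with 58.0% and 63.6% in those windows, and these intervals overlapped too. When sites and windows were cut to 200 bp, the A word was in 54.5% of sites (40.1 to 68.3) and 26.1% of the centred windows (18.1 to 36.2), with no overlap. The G word (40.9% against 17.05%) and either word (75.0% against 36.4%) were also separate from the centred windows at that width, and the looser word was not. Against 200-bp windows beyond the edges, again an added definition, the intervals of all these words overlapped, that of the A word in the windows being 26.1 to 45.6. Common sites elsewhere held either word in 68.4% and the looser word in 74.5%, the first below and the second above the share in the guidance gene sites, and both inside its interval.

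The POU octamer was in 7 of 44 sites (15.9%, 7.93 to 29.4), with 4.55% in the centred windows (1.78 to 11.1) and 2.27% in those beyond the edges (0.625 to 7.91). The interval of the sites overlapped the first of these and lay just above the second. Common sites elsewhere held it in 9.80%, inside the interval of the guidance gene sites. The SOX/POU word was in 6 sites (13.6%, 6.40 to 26.7), with 1.14% and 0% of 88, and the last allows up to 4.18% by its interval. It was in 6.41% of common sites elsewhere. Its carriers included a site each of Epha1, Epha4, Epha5, Ephb1, Efna1 and Efnb1, and no Slit, Robo or netrin site held it. A word is a match of letters and not a measured contact.

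**Figure D5:**
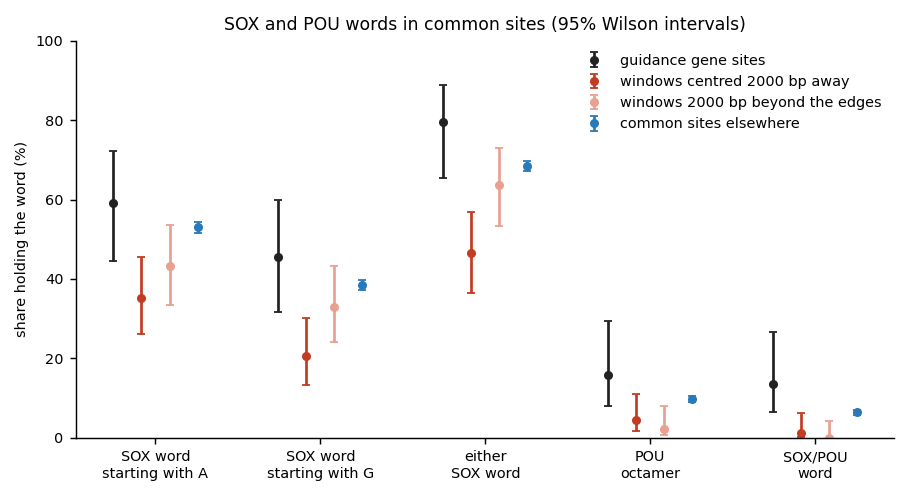
Share (%) of the 44 guidance gene sites, of both kinds of windows beside them and of common sites elsewhere that hold each SOX or POU word, with 95% Wilson intervals. The share with either SOX word is 79.5% in the sites, 46.6% in the centred windows and 63.6% in the windows beyond the edges.

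Other genes of these pathways, among them signalling partners of the receptors, were counted for comparison. Of 29, 11 (37.9%) had a common site where 11.4 were expected from length, and they had 17 sites, or 0.226 per 100 kb (0.132 to 0.362). Srgap3, which acts downstream of Robo receptors, and Trio, an exchange factor in netrin signalling, had 3 each. Draxin, Enah, Fyn, Ptk2 and Adam10 had none.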

How the data were processed

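The 3 deposited peak lists (mm9) were used as given. Per the study's methods, reads were aligned with Bowtie (1.0.0 in the submitters' processing notes), and the authors ran MACS separately on every replicate, with input as control (bandwidth 300, p-value threshold 1e-05). The MACS version is not given in the sources used here, and the input was not analysed here. The deposited score is 10 times the negative log10 p-value.

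Peaks, common sites and genes were joined in Python 3.11.15 with numpy 2.4.6, scipy 1.17.1 and pysam 0.24.0, using GENCODE vM1. Of 2 entries named Efna5 the longer was taken, and Draxin was matched through its older symbol 2610109H07Rik. A site was mostly repeated where over 50% of its 50-base sequences occurred elsewhere in mm9. The counting and the word search were tested on simulated data, and the planted numbers of sites were recovered for 37 of 37 genes. All members were counted, and the scores of every common site were given, which covered Slit1, Robo1 and Efnb3, named in the study. The members and gene lists were chosen with earlier results of these data known, so no test was run on them. Alternatives covered the site definition, score threshold, window, start distance, repeated sequence and each replicate left out. Leaving out the gene with most sites in each family, and the windows drawn beyond site edges, were added after the data were seen.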

Additional observations from a re-analysis of the deposited data

How the results depend on the processing

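No paired analysis was possible because all 3 replicates belong to 1 group. At a stricter MACS p-value limit of 1e-10, the windows held 27 common sites, 2 ephrins had a site, 15.2% of all protein-coding genes had a site and the expectation from length was 8.56 members. With 10 kb to each side, 3 ephrins and 14.0% of all genes had a site. With the gene body only, 13 members, 2 ephrins and 8.37% of all genes had a site, and 8.55 members were expected. Counting the closest start only, 3 ephrins and 13.7% of all genes had a site. Leaving out each replicate in turn gave from 45 to 70 sites and from 3 to 5 netrin group members with a site, the highest values being those without replicate 2. Without Ntn1 the netrin group had 0.0639 sites per 100 kb. Drawing the neighbouring windows beyond the edges of the sites, in place of centring them 2000 bp away, raised their share with the G word from 20.5% to 33.0%, and it ended the separation from the sites given in the report, also at 200 bp; the cause was not tested. The other 182 values for comparisons stayed within 1.5 times the main count or inside its interval. Of 533 counts of sites for single families or genes, 79 moved by over 1.5 times, 28 up and 51 down. Without replicate 2 the Eph receptors went from 19 to 29 sites, the netrin group from 6 to 13, Efnb2 from 5 to 9 and Unc5c from 1 to 4, and without replicate 1 the Eph receptors also had 29. At the 1e-10 limit Slit-Robo fell from 8 to 4 sites and Slit3 from 3 to 0. Read depth is not given in the lists, so absent peaks cannot be told from shallow sequencing.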
